A study of Mus musculus with 2084 samples.

Results

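The cells described here were sorted from the ventricular-subventricular zone (vSVZ), the stem cell niche lining the lateral ventricles of the adult mouse brain, through a gate whose name gives GLAST, the glutamate transporter made by astrocytes and neural stem cells (NSCs). They came from TiCY mice killed 21 d after transient loss of forebrain blood flow, and were chosen by the gate in the cell's name, the genotype and the treatment label, not by any measured value. Of 157 labelled cells of letter pH in this gate, 155 were in the count matrix. They were compared with 188 cells of the same gate from naive TiCY mice of letter pM, out of 2084 labelled cells in the whole series. RNA was measured by Smart-seq3, a full-length method for single cells, as the transcriptome arm of an assay that also reads DNA methylation and chromatin accessibility. Per the labels' protocols, TiCY mice of 2 months received tamoxifen, and Cre then acts in Tlx (Nr2e1) expressing NSCs of the vSVZ and leaves them and their descendants with enhanced YFP. Both carotid arteries were occluded 2 weeks later (BCCAO), and these animals were killed 3 weeks after that. The labels give the genotype TiCY and the treatment naive for letter pM, and do not say how long after tamoxifen those mice were killed. A letter stands for 1 or more mice, plates could hold cells of pooled mice, and each arm is 1 letter. No test between conditions was therefore possible, and every difference below is a difference between these letters. Cells of a second naive letter, pJ, with the genotype label IFN(A/G)R KO (134 cells), and TiCY cells of letter pI taken 2 d after ischemia (176 cells), both of the same gate, are given side by side. Square brackets hold exact 95% intervals, Poisson for counts and binomial for shares of cells, which cover counting error only. Smart-seq3 reads are not independent molecules, so the intervals understate even that error.

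In this niche, quiescent NSCs resemble astrocytes: both express glutamate transporters, gap junction proteins and the transcription factor Sox9. Notch signals and Id proteins are known to hold NSCs in quiescence, and their activation brings Egfr and D-type cyclins, followed by division as transit-amplifying progenitors (TAPs) and then neuroblasts that migrate to the olfactory bulb. After ischemia, astrocytes and NSCs near the injury are known to turn on reactive genes such as Gfap, Vim and Nes, and interferon can push quiescent NSCs toward activation.

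A cell held 28280 to 264228 counts at 21 d (median 153937, 4686 genes) and 6653 to 269473 in the naive arm (median 162568, 4944 genes). The arms summed to 23683428 and 28546111 counts, and no pair of cells had identical counts. The arms also stood apart in pseudogenes, a nuclear RNA and mitochondrial transcripts. Of processed pseudogenes, 110 of 412 were at least 2-fold higher at 21 d and 40 lower, against 34 and 26 of 366 between the naive letters pJ and pM. Malat1, a nuclear RNA, took 0.286% of counts at 21 d, 0.0821% at 2 d, 0.955% in naive pM and 0.830% in naive pJ. Mitochondrial genes took 0.270%, 0.380%, 0.137% and 0.136%. The ischemic letters thus lay on one side and the naive letters on the other in both measures, so that ischemia, letter and library preparation cannot be told apart. Among named genes, those that overlap a neighbour on the same strand, whose reads may have been counted either way, include Slc1a3, Adarb2, Fhl1, Trpm3, Nrxn3, Robo2, Lama2, Ncan, Pkm, Acsl3, Dnmt1, Nusap1, Pgls, Phpt1, Rpl36al, Rpl24, Gnas, Klf9, Rmst, Fkbp5 and Efcab8.

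The gene of the sorting antigen was within the fold between the arms. Slc1a3 (chromosome 15, 8634124 to 8710764, minus strand, GRCm38), which encodes GLAST, was at 3414 CPM [3390.2, 3437] at 21 d and 4317 CPM [4292, 4341] in naive cells (log2 ratio -0.34, computed on CPM with 5 CPM added), and at 4637 CPM in naive knockout cells. After thinning every cell to 50000 counts, Slc1a3 was detected in 93.3% [88.1, 96.8] of 150 cells at 21 d and 94.4% [89.9, 97.3] of 177 naive cells. Nr2e1, whose promoter drives the recombination, was at 135 and 164 CPM. The Y-linked genes Ddx3y, Eif2s3y, Kdm5d and Uty were present in both arms and Xist was at 0.676 and 2.73 CPM. Of the Y-linked genes Uty was past the fold, at 12.5 against 52.9 CPM.

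Across all genes, the 21 d cells had about as many genes on the higher as on the lower side. A gene was measured where the mean of the arms was at least 5 CPM, and past the fold where the arms differed at least 2-fold with 5 CPM added to each. Of 12491 measured genes, 1041 (8.33%) were higher at 21 d and 977 (7.82%) lower, with a median log2 ratio of 0.03. Counts of list members past the fold, given below, are to be read beside these shares, and those within the glial class beside its own. The 2 naive letters, compared in the same way with the knockout over TiCY, differed at 589 higher (4.76%) and 704 lower genes (5.69%) of 12382, which is the size of difference that letter and genotype gave with no ischemia. Of 12472 genes measured over the 3 letters, 528 (4.23%) were at least 2-fold above both naive letters at 21 d and 458 (3.67%) at least 2-fold below both. Those genes are described below as lying beyond both naive letters. Kept to protein-coding genes that overlap no other gene, an alternative chosen after seeing the data, the counts against naive TiCY were 407 higher and 300 lower of 4785. Protein-coding genes that overlap another gene on the same strand leaned the other way, with 154 higher (5.60%) and 273 lower (9.92%) of 2751. Between the naive letters the latter were 102 higher and 154 lower of 2741. The part of overlap in the lower genes named below was not tested.

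**Figure D1:**
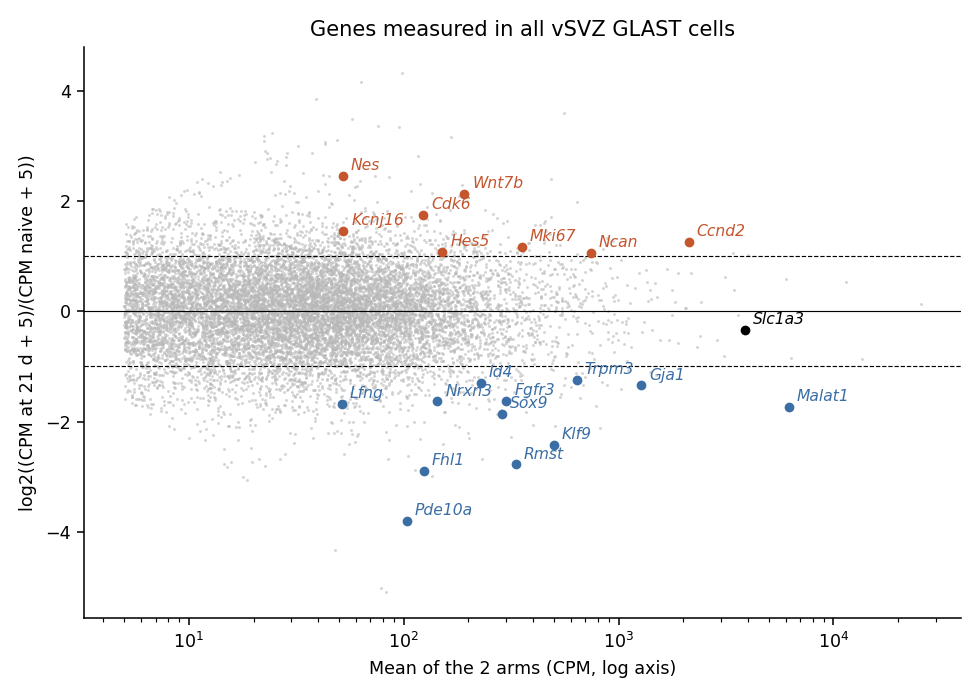
Each grey point is a gene measured over all vSVZ GLAST cells, with the mean of the 2 arms in CPM on a log axis and the log2 ratio of 21 d over naive cells on the vertical axis; dashed lines mark a 2-fold difference. Wnt7b, Nes, Cdk6 and Ccnd2 (red) lie above the upper line, Sox9, Gja1, Fgfr3 and Id4 (blue) below the lower line, and Slc1a3 (black) between them.

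The share of cells nearest activated NSCs, TAPs or neuroblasts, called the progeny class here, was 25.8% [19.1, 33.4] at 21 d (40 cells). In naive cells it was 18.6% [13.3, 24.9] (35 cells), and the intervals overlap. Activated NSCs are themselves stem cells, so the class holds more than the progeny of NSCs. Most 21 d cells carry a label that names no single type, so each cell was put with the labelled type of pM (vSVZ astrocyte, the quiescent stem cell class qNSC2, activated NSC, TAP or neuroblast) whose mean profile over 92 marker genes it matched best. Vascular or immune types had no profile to match. The rule gave the labelled type for 91.0% [85.9, 94.6] of naive pM cells and 91.0% [84.9, 95.3] of naive pJ cells. At 21 d it put 81 cells nearest vSVZ astrocytes, 34 nearest qNSC2, 15 nearest activated NSCs, 13 nearest TAPs and 12 nearest neuroblasts. In the naive arm the numbers were 114, 39, 10, 9 and 16. Cells nearest activated NSCs had 0 activated NSC, TAP or proliferation markers among their 10 leading genes against the rest of their arm, in both arms. Cells nearest TAPs were 8.39% [4.54, 13.9] at 21 d and 4.79% [2.21, 8.89] in naive cells, again with overlapping intervals. In naive knockout cells the progeny share was 18.7% [12.5, 26.3], and at 2 d it was 77.3% [70.4, 83.2], far above the other arms. The sort sets these shares, and 5 cells at 21 d and 6 naive cells lay near the border between glial and progeny cells.

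**Figure D2:**
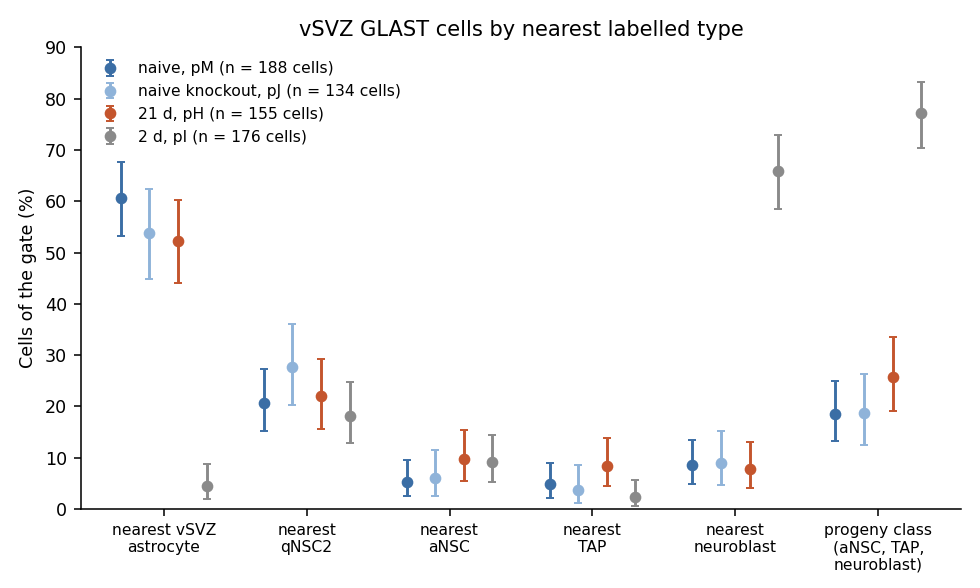
Share of vSVZ GLAST cells (%) nearest each labelled type, by arm, with exact 95% binomial intervals; the last column adds activated NSCs, TAPs and neuroblasts. At 21 d the intervals overlap those of both naive letters in every column, while 2 d cells were mostly nearest neuroblasts.

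The glial class below joins the cells nearest vSVZ astrocytes and qNSC2, 115 at 21 d and 153 naive. Its 10 leading genes against the other cells of the same arm held Aqp4 and Clu, astrocyte markers, in both arms and no marker of another class. Both are marker genes of the class rule, so their place there does not check the class. The 21 d cells nearest qNSC2 had Camk2a, a neuronal kinase, and none of the quiescence markers among their 10 leading genes, so that group was not compared by itself, and values for the astrocyte-nearest cells alone (81 and 114 cells) are given for some genes. Of 132 glial-class ratios of genes named by rule, 73 moved beyond counting error in those cells alone and 1 changed sign, so many glial-class values do not stand for the astrocyte-nearest cells. In the glial class, 1186 of 12089 genes (9.81%) were higher at 21 d and 1119 (9.26%) lower. The marker genes of the class rule set which cells entered, so their values within the class are descriptions.

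Astrocyte genes as a group were near their naive level at 21 d. The gap junction genes Gja1 and Gjb6 were lower than in naive pM but close to naive pJ, and Fgfr3 was lower than in both. Of 20 astrocyte markers measured, 1 was higher and 4 were lower (median log2 ratio -0.32, and -0.19 in the glial class). Gja1 (chromosome 10, 56377330 to 56402513, plus strand), connexin 43 of astrocyte gap junctions, was at 721 CPM [709.8, 731] at 21 d and 1836 CPM [1819.9, 1851] in naive cells (log2 ratio -1.34, glial class -1.20). Single cells ranged from 0 to 2678 CPM (median 634) at 21 d and from 0 to 7213 CPM (median 1878) in naive cells, and naive cells were higher as a group while the arms overlapped. Naive knockout cells were at 884 CPM, close to the 21 d level, so Gja1 was not beyond both naive letters. Gjb6, connexin 30, showed the same order, with 66.5 CPM at 21 d, 165 in naive pM and 69.9 in naive pJ. Fgfr3 (chromosome 5, 33721674 to 33737068, plus strand), an FGF receptor of astrocytes and NSCs, was at 144 CPM [139.6, 149] against 456 CPM [449, 464] (log2 ratio -1.63, glial class -1.48) and at 514 CPM in naive pJ, so the 21 d level lay beyond both naive letters. It was detected in 68.7% [60.6, 76.0] of thinned cells at 21 d and 84.2% [78.0, 89.2] of naive cells. Aqp4, the water channel of astrocyte endfeet, was at 216 and 452 CPM (log2 ratio -1.05), and within the glial class its ratio of -0.90 was short of the fold. Agt, angiotensinogen, was higher at 79.3 against 35.7 CPM, though detected in 22.7% and 24.9% of thinned cells, so the share of cells with it was not higher.

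Genes for ion, water and glutamate handling mostly lay at or under their naive level. Of 14 measured genes for potassium, water and gap junctions, 2 were higher and 5 lower (median -0.40). The lower ones were Aqp4, Gja1, Gjb6, Slc12a2 (a chloride importer) and Trpm3, a cation channel, at 376 against 902 CPM. Kcnj16 (chromosome 11, 110968033 to 111027968, plus strand), a partner subunit of the potassium channel that Kcnj10 forms, was higher at 79.3 CPM [75.7, 83.0] against 25.6 CPM [23.8, 27.5] (log2 ratio 1.46) and lay beyond both naive letters, with 16.4 CPM in naive pJ. Kcnj10 itself was at 204 and 175 CPM. Of 9 glutamate uptake and cycle genes, 1 was higher, the glutamine transporter Slc38a3, and 1 lower (median -0.36). Slc1a2, the main astrocyte glutamate transporter, was at 9655 CPM [9615, 9694] at 21 d and 17591 CPM [17542, 17639.7] in naive cells (log2 ratio -0.87), within the fold. Naive knockout cells were between them at 13957 CPM.

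Several transcriptional regulators associated with the quiescent state were lower at 21 d, and others were not. Of 18 quiescent NSC markers, 5 were lower (Sox9, Id2, Id4, Prom1 and Gja1) and 1 higher (Hes5), with a median of -0.26. Sox9 (chromosome 11, 112782224 to 112787760, plus strand), a transcription factor of astrocytes and NSCs, had the largest difference of the list, at 122 CPM [117, 126] at 21 d and 453 CPM [445, 461] in naive cells (log2 ratio -1.86, glial class -1.73). Single cells ranged from 0 to 1007 CPM (median 57.3) at 21 d and from 0 to 2219 CPM (median 360.3) in naive cells; the groups overlapped, with the higher median in naive cells. It was detected in 77.3% [69.8, 83.8] of thinned cells at 21 d and 92.7% [87.8, 96.0] of naive cells, and naive knockout cells were at 589 CPM, so the 21 d level lay beyond both naive letters. Id2 and Id4 encode inhibitors of bHLH factors that act downstream of BMP. Id2 was at 64.3 CPM [61.1, 67.6] against 214 CPM [208, 219] (log2 ratio -1.66), was detected in 38% [30.2, 46.3] of thinned 21 d cells and 75.7% [68.7, 81.8] of naive cells, and had intervals that do not overlap. Id4 (chromosome 13, 48261228 to 48266026, plus strand) was at 129 CPM [125, 134] against 326 CPM [319.8, 333] (log2 ratio -1.30), and both Id2 and Id4 lay beyond both naive letters. Id3 ran the other way, at 164 against 89.2 CPM (log2 ratio 0.84), with 196 CPM in naive pJ. Of 13 BMP and Id genes measured, 0 were higher and 3 lower (Id2, Id4 and Smad7; median -0.12). Sox2, a stem cell factor, was at 529 and 381 CPM, and Thbs4, a matrix protein of vSVZ NSCs, at 161 and 255 CPM, both within the fold.

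**Figure D3:**
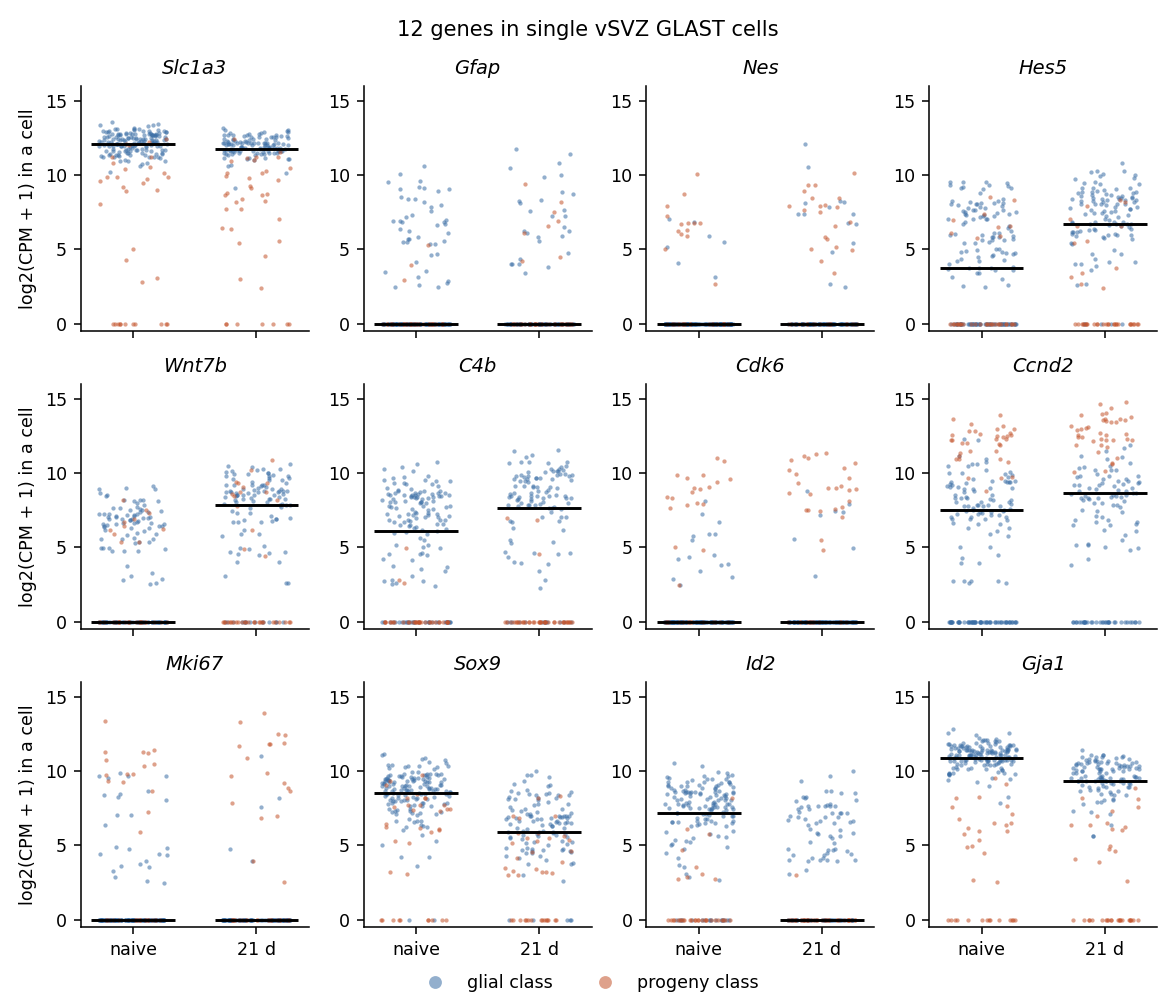
Level of 12 genes in each vSVZ GLAST cell, as log2(CPM + 1), for naive and 21 d cells; blue points are cells of the glial class, red points cells of the progeny class, and black bars the median over all cells of the arm. Sox9, Id2 and Gja1 sit lower at 21 d and Hes5 and Wnt7b higher, with overlapping arms, while Cdk6, Ccnd2 and Mki67 are highest in progeny cells of both arms.

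Notch pathway genes differed in both directions. Of 11 measured, 3 were higher (Notch3, Hes5 and Rbpj) and 1 lower (Lfng), with a median of 0.04. Rbpj (chromosome 5, 53466152 to 53657362, plus strand), the DNA-binding partner of activated Notch, was at 114 CPM [110.2, 119] at 21 d and 30.7 CPM [28.7, 32.8] in naive cells (log2 ratio 1.74, glial class 1.57), was detected in 50.7% [42.4, 58.9] of thinned cells against 24.3% [18.2, 31.3], and lay beyond both naive letters. It has a named pseudogene, which could take part of its reads. Hes5 (chromosome 4, 154960923 to 154962371, plus strand), a Notch target, was at 207 CPM [201, 213] against 95.7 CPM [92.2, 99.4] (log2 ratio 1.07, glial class 1.29). Naive knockout cells had 215 CPM of Hes5, as much as 21 d cells, so the 21 d level was not beyond both naive letters. At 2 d Hes5 was at 3.88 CPM, in an arm where 77.3% of cells were of the progeny class. Notch3, a receptor, was also lowest in naive pM, with 71.3, 31.7 and 91.9 CPM at 21 d, in naive pM and in naive pJ. Lfng, which modifies Notch receptors, was at 21.7 CPM [19.9, 23.7] against 81.1 CPM [77.8, 84.4] (log2 ratio -1.69) and 70.6 CPM in naive pJ, beyond both naive letters.

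The Wnt ligand gene Wnt7b was among the genes furthest above the naive level. Wnt7b (chromosome 15, 85535437 to 85582473, minus strand), a secreted ligand, was at 315 CPM [308, 323] at 21 d and 68.3 CPM [65.3, 71.4] in naive cells (log2 ratio 2.13, glial class 2.15). Single cells ranged from 0 to 1838 CPM (median 234) at 21 d and from 0 to 568 CPM (median 0) in naive cells, and it was detected in 73.3% [65.5, 80.2] of thinned cells at 21 d and 46.9% [39.4, 54.5] of naive cells, shares whose intervals do not overlap. With 145 CPM in naive pJ it lay beyond both naive letters. Wnt7a was at 86.9 against 35.7 CPM, but at 89.4 CPM in naive pJ. Sfrp1, a secreted Wnt modulator, was at 304 against 127 CPM, with 191 in naive pJ. On the lower side were Fzd2, a receptor (95.6 against 208 CPM), Lrp6, a co-receptor (21.8 against 84.1 CPM), and Rspo3, a ligand that enhances Wnt signals (1.35 against 17.8 CPM). Of 18 Wnt genes measured, 3 were thus higher and 3 lower, with a median of -0.02. Of 13 EGF and FGF pathway genes, 0 were higher and 3 lower: Fgfr3, Erbb4 and its ligand Nrg1 (median -0.22). Egfr was at 204 and 239 CPM.

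Genes of activated NSCs and TAPs leaned higher over the whole gate. Of 13 measured, 5 were higher (among them Ccnd1, Ccnd2, Cdk6 and Hes6) and 0 lower, with a median of 0.64 against 0.03 over all genes. All of these 5 lay beyond both naive letters. Within glial cells the median was 0.50 and 2 of 10 passed the fold, Ccnd1 among them. Ccnd1, a D-type cyclin, was at 32.6 CPM [30.3, 35.0] against 8.76 CPM [7.71, 9.91] (log2 ratio 1.45, glial class 1.15) and was detected in 18% of thinned cells at 21 d and 5.65% of naive cells. Ccnd2 (chromosome 6, 127125162 to 127152193, minus strand), another cyclin of that kind, was at 2999 CPM [2977, 3021] against 1247 CPM [1234, 1259.7] over all cells (log2 ratio 1.26). Within the glial class the levels were 441 and 328 CPM (log2 ratio 0.42), and within progeny cells 10025 and 5359 CPM. Cdk6, the kinase that D-type cyclins bind, was at 193 against 53.7 CPM over all cells (log2 ratio 1.76), and at 698 against 276 CPM in progeny cells. Both genes thus had most of their counts in the progeny class, and both were also higher at 21 d within it. The part of the progeny share in these differences was not tested. Hes6 was at 118 against 47.0 CPM and was detected in 46% [37.8, 54.3] of thinned cells against 26.0% [19.7, 33.1].

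Cell-cycle genes leaned higher over the gate, with a median near 0 in the glial class. Of 20 proliferation genes, 3 were higher (Mki67, Mcm5 and Nusap1) and 1 lower (Cdk1), with a median of 0.56. Of 11 members measured in glial cells, 3 were higher and 2 lower, with a median of 0.02. Mki67 (chromosome 7, 135689784 to 135716361, minus strand), a marker of dividing cells, was at 493 CPM [484, 502] against 216 CPM [211, 221] (log2 ratio 1.17). Its detected share ran against that, 15.3% [9.98, 22.1] at 21 d and 19.2% [13.7, 25.8] in naive cells, and a single cell held 30.0% of its counts at 21 d and 37.7% in the naive arm. Without the highest cell of each arm the ratio of Mki67 was 1.33, still past the fold. As its level and its detected share ran opposite ways, no order can be read from Mki67 over the gate. Its level in glial cells was lower, 11.7 against 41.2 CPM (log2 ratio -1.47), but higher than in the glial cells of naive pJ, at 0.0599 CPM. Mcm5, of the replication helicase, was at 57.8 against 20.7 CPM, and in glial cells at 0.864 and 5.83 CPM. Nusap1, a spindle protein, was at 61.1 against 25.9 CPM, and without the highest cell of each arm its ratio was 0.91, short of the fold. Top2a was at 230.2 and 204 CPM, and cells with at least 1000 CPM of summed proliferation genes numbered 23 at 21 d and 17 naive.

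Most neuroblast genes had ratios below 0, while the median of their sum per cell was not lower. Of 18 measured, 0 were higher and 4 lower (Nrxn3, Cd24a, Sp8 and Robo2), with a median of -0.53. The summed list had a median of 276 CPM per cell at 21 d and 176 CPM in naive cells, and reached 1000 CPM in 41 and 39 cells (26.5% and 20.7%). Within progeny cells the medians were 4975 and 3354 CPM. Nrxn3, a synaptic adhesion protein, was at 67.4 CPM [64.1, 70.8] at 21 d and 219.8 CPM [214, 225] in naive cells (log2 ratio -1.63), and in progeny cells alone at 220.4 against 1042 CPM. Robo2, a Slit receptor, was at 26.2 against 93.9 CPM, and Sp8, a transcription factor of interneuron precursors, at 3.46 against 21.3 CPM. Nrxn3, Sp8 and Robo2 lay beyond both naive letters. Dcx, the microtubule protein of migrating neuroblasts, was at 26.5 against 54.8 CPM (log2 ratio -0.93), short of the fold, and was detected in 12% [7.27, 18.3] of thinned cells against 8.47% [4.82, 13.6]. These genes sit in few cells, 12 and 16 nearest neuroblasts. At 2 d, Nrxn3 was at 1075 CPM and Dcx at 450.03 CPM.

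Reactive astrocyte genes were mixed, and the differences of Vim and Cxcl10 rested on 1 cell. Of 25 listed, 10 were measured, 3 were higher (Nes, Vim and Cxcl10) and 2 lower (Fbln5 and Srgn), with a median of 0.38. The median was 0.69 in the glial class and -0.02 in the astrocyte-nearest cells alone. Gfap (chromosome 11, 102887336 to 102900912, minus strand), the intermediate filament that marks reactive astrocytes and vSVZ NSCs, was at 109 CPM [105, 114] at 21 d and 60.3 CPM [57.5, 63.2] in naive cells (log2 ratio 0.81), within the fold, and at 86.2 CPM in naive pJ. It was detected in 24% [17.4, 31.6] and 23.2% [17.2, 30.1] of thinned cells, nearly the same share. At 2 d it was at 1294 CPM. Nes (chromosome 3, 87971078 to 87980451, plus strand), nestin, was at 91.9 CPM [88.1, 95.8] against 12.7 CPM [11.4, 14.1] (log2 ratio 2.45, and 2.52 without the highest cell of each arm), and was detected in 22.7% [16.2, 30.2] of thinned cells against 9.04% [5.26, 14.3]. It lay beyond both naive letters. In the glial class its ratio was 3.29, with 48.5% of the 21 d counts in 1 cell, 2.67 without the highest cell of each arm, and 0.33 in the astrocyte-nearest cells alone. It was detected in 12.5% of thinned glial cells at 21 d. Vim, vimentin, was at 197 against 94.4 CPM, with 35.9% of the 21 d counts in 1 cell, and without the highest cell of each arm its ratio was 0.50. Cxcl10, an interferon-induced chemokine, was at 44.2 against 0.771 CPM, with 99.3% of the 21 d counts in 1 cell and a ratio of 0.08 without the highest cell of each arm. Serpina3n, a common reactive marker, was at 7.85 and 3.68 CPM, and at 213 CPM at 2 d.

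Interferon and antigen presentation genes were mostly within the fold, with list medians above 0. Of 15 interferon response genes measured among 33, 12 had a ratio above 0, 2 were higher (Ifitm3 and Ddx58) and 1 lower (Trim30a). The list median was 0.35. Between the naive letters, where pJ lacks interferon receptors by its label, the median of the same genes was 0.28. Ddx58, the RNA sensor RIG-I, was at 34.2 CPM [31.8, 36.6] at 21 d and 7.92 CPM [6.92, 9.02] in naive cells (log2 ratio 1.60) and was detected in 15.3% [9.98, 22.1] of thinned cells against 5.65% [2.74, 10.1]. Ifitm3, a membrane protein that restricts viral entry, was at 38.3 against 13.2 CPM. Trim30a was at 3.93 against 21.1 CPM, and its detected share was 5.33% [2.33, 10.2] against 52.5% [44.9, 60.1], with non-overlapping intervals. Isg15, a ubiquitin-like protein induced by interferon, was at 1.18 and 0.876 CPM. Of 8 MHC class I genes, 0 were higher and B2m, the invariant chain of MHC class I, was lower at 19.8 CPM [18.0, 21.6] against 61.3 CPM [58.5, 64.2] (list median 0.33). None of 7 interferon receptor and kinase genes passed the fold (median 0.26).

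The complement gene C4b was higher at 21 d. C4b (chromosome 17, 34728380 to 34743882, minus strand), complement component C4 and made by astrocytes, was at 402 CPM [394, 411] at 21 d and 189.97 CPM [185, 195] in naive cells (log2 ratio 1.06, glial class 1.22, astrocyte-nearest cells 0.98). Single cells ranged from 0 to 3010.4 CPM (median 198) at 21 d and from 0 to 1683 CPM (median 68.2) in naive cells, so the arms overlapped, and naive pJ was at 157 CPM, which puts 21 d beyond both naive letters. Serping1, the C1 inhibitor, was also past the fold at 10.9 against 2.63 CPM, but not without the highest cell of each arm (0.96). The other 10 of 12 inflammation and complement genes were within the fold (median -0.10). Of 13 immediate early genes, which respond to stimulation and to dissociation, 3 were higher (Jun, Junb and Btg2) and 2 lower (Egr3 and Klf4), with a median of 0.27. Jun was at 393 CPM [385, 401] against 166 CPM [161, 171] (log2 ratio 1.22), and in the astrocyte-nearest cells its ratio was 0.82. None of 8 heat shock genes passed the fold over the gate, and in the glial class 3 were lower (Hspa5, Hspe1 and Hsph1), of which Hspa5 and Hsph1 had lower levels still in naive pJ.

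Energy metabolism lists had medians above 0, except fatty acid oxidation, with few members past the fold. Over all measured genes 8.33% were higher and 7.82% lower, with a median of 0.03. Of 24 oxidative phosphorylation genes, 20 had a ratio above 0, 3 were called higher (Ndufs8, Uqcrq and Cox6a1) and 1 lower (Uqcrc2), with a median of 0.44 in all cells, 0.44 in the glial class and 0.18 between the naive letters. Ndufs8, of complex I, was at 189 against 60.3 CPM. Of 15 glycolysis genes, Pkm and Tpi1 were higher and Pgam1 lower (median 0.32, and 0.24 between the naive letters). Pkm, pyruvate kinase, was at 682 CPM [671, 692] against 221 CPM [216, 227] (log2 ratio 1.60) and at 369.8 CPM in naive pJ. Of 12 hypoxia genes, 3 were higher (Hk2, Egln3 and Ndrg1, all under 25 CPM in both arms) and 0 lower. Of 20 fatty acid oxidation genes, 3 were lower (Acsl3, Cpt2 and Etfa) and 1 higher (Acaa2), with a median of -0.41. Acsl3, which activates long-chain fatty acids, was at 926 CPM [914, 939] against 2061 CPM [2045, 2078] (log2 ratio -1.15). Of 19 cholesterol synthesis genes, 3 were higher (among them Mvk and Mvd) and 1 lower (Nsdhl), with a median of 0.03; Mvd was as high in naive pJ (64.7 CPM) as at 21 d (52.6 CPM). Ribosomal protein genes had 3 higher and 0 lower of 30 (Rpl8 and Rpl18 among the higher), with a median of 0.41 over the gate and 0.16 in the glial class; many have pseudogene copies, so reads may be split between a gene and its copies. Of 20 oxidative stress genes 1 was past the fold, Nqo1, and without the highest cell of each arm its ratio was -0.49.

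Matrix and DNA methylation genes showed single differences. Of 20 matrix and adhesion genes, 2 were higher (Ncan and Itga6) and 1 lower (Lama2), with a median of 0.08. Lama2, a laminin chain, was at 64.4 CPM [61.2, 67.7] against 242 CPM [237, 248] (log2 ratio -1.83), was detected in 40% [32.1, 48.3] of thinned cells against 75.7% [68.7, 81.8], and lay beyond both naive letters. Ncan, the proteoglycan neurocan, was at 1008 against 479 CPM, with 845 CPM in naive pJ. Of 16 DNA methylation genes, 3 were higher (Dnmt1, Tdg and Mbd3) and 1 lower (Dnmt3b), with a median of -0.06. Dnmt1, the maintenance methyltransferase, was at 72.4 CPM [69.0, 75.9] against 25.2 CPM [23.4, 27.1] (log2 ratio 1.36, glial class 1.18) and lay beyond both naive letters. Of all the list members and leading genes named by rule, Ak7, Cdk1, Clcn2, Cxcl10, Egr3, Klf4, Nqo1, Nusap1, Serping1, Smad7, Tdg and Vim were no longer past the fold over all cells once the cell highest for the gene was left out of each arm, a check added after seeing the data.

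Among well-detected genes, 10 were named for the highest and 10 for the lowest ratio over all cells. Of the 10 highest, 9 lay beyond both naive letters (Adarb2, Apex1, Csnk1g2, Mfap2, Mxra7, Pgls, Rps27rt, Tmem170b and Wnt7b), and the tenth was Proser3. Adarb2 (chromosome 13, 8202866 to 8768747, plus strand), a brain member of the RNA-editing enzyme family without known editing activity, was at 295 CPM [288, 302] against 65.6 CPM [62.7, 68.7] (log2 ratio 2.08), was detected in 68% [59.9, 75.4] of thinned cells against 30.5% [23.8, 37.9], and had 378 CPM at 2 d. Tmem170b, a membrane protein, was at 319 against 76.0 CPM, and Apex1, a DNA repair endonuclease, at 76.7 against 16.1 CPM. Mxra7, a matrix-remodelling protein by its name, was at 74.8 against 11.2 CPM. Rps27rt is a near copy of a ribosomal protein gene and its reads are uncertain. In the glial class the 10 highest were Adarb2, Wnt7b, Tmem170b, Ddx47, Fasn, Pdxp, Rnd3, Tle2, Tmem160 and Uqcr10. Fasn, fatty acid synthase, was at 414 against 98.8 CPM in glial cells, and Rnd3, a small GTP-binding protein, at 168 against 41.3 CPM. Ranked by the smaller of their ratios to the 2 naive letters, the 5 furthest higher genes beyond both were Rps27rt, Mxra7, Adarb2, Pdxp and Rbpj.

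Of the 10 lowest genes over all cells, 4 lay beyond both naive letters: Fhl1, Efcab8, Phpt1 and Rpl36al. Fhl1 (chromosome X, 56731787 to 56793346, plus strand), a LIM domain protein, was at 25.5 CPM [23.6, 27.7] against 223 CPM [218, 229] (log2 ratio -2.90), and naive pJ was at 230.4 CPM, near naive pM. Ranked the same way, the 5 furthest lower genes beyond both were Fhl1, Efcab8, Phpt1, Rpl36al and Rpl24, and each of them overlaps a neighbour on the same strand. Rpl24, a ribosomal protein, was detected in 42% of thinned cells against 79.1%. The other 6 (Lyz2, S100a9, Pde10a, Rmst, Zbtb16 and Adamts20) were high in naive pM and lower in naive pJ. Pde10a, a phosphodiesterase, was at 9.50 CPM at 21 d, 198 CPM in naive pM and 3.09 CPM in naive pJ. Zbtb16, a transcription factor, was at 25.6, 183 and 41.7 CPM in that order, and Fkbp5, among the 10 lowest of the glial class, at 12.5, 64.5 and 4.56 CPM. Both are known to be induced by glucocorticoids, as are Tsc22d3 and Klf9, which were looked up after these values were seen. No list of glucocorticoid-induced genes was counted, so these 4 do not stand for such genes, and a link was not tested. Tsc22d3 was at 15.8, 103 and 19.3 CPM, and Klf9 at 155, 849 and 441 CPM. Of these 4, only Klf9 was at least 2-fold lower at 21 d than in both naive letters. The other 9 genes among the 10 lowest of the glial class were Lyz2, S100a9, Pde10a, Rmst, Zbtb16, Fhl1, Rpl36al, Gnas and Tekt4.

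Transcripts of 3 myeloid genes were counted in the naive TiCY letter and not at 21 d. S100a8 and S100a9, calcium-binding proteins of neutrophils and monocytes, and Lyz2, lysozyme of myeloid cells, were the genes with at least 50 CPM in naive cells and 0 counts at 21 d. Lyz2 was at 166 CPM [161, 171] in naive pM and 3.58 CPM in naive pJ, and 0 counts at 21 d, taken at a floor of 3 counts over the arm, put it at least 1309-fold lower. S100a8 was at 157 CPM [152, 161] in naive pM and at 0 in naive pJ, at least 1238-fold lower at 21 d, and S100a9 was at least 755-fold lower. Lyz2 was spread over 66.7% [59.2, 73.6] of thinned naive cells and was found in 0 of 150 at 21 d, which allows a share of up to 2%. Striatal cells of the same naive letter held 102 CPM of Lyz2 and those of letter pH 0.383 CPM. Antibodies to CD45, a pan-leukocyte protein, were in the sort. Of 12 microglia markers, 2 were measured, with Tyrobp, a signalling adaptor of myeloid cells, at 0.0422 against 19.9 CPM; P2ry12 and Cx3cr1 were at or under 6.08 CPM and C1qb at 0 in both arms, and the summed list ranged from 0 to 466 CPM in 21 d cells and from 0 to 744 CPM in naive cells. The part of these transcripts in other differences was not tested.

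Oligodendrocyte transcripts were low in both arms, with a few genes higher at 21 d. Of 15 markers, 7 were measured and 3 were higher (Mbp, Mag and Ermn) with 0 lower (median 0.75). Mbp, myelin basic protein, was at 26.3 CPM [24.3, 28.5] against 5.68 CPM [4.83, 6.62] and was detected in 17.3% [11.6, 24.4] of thinned cells against 3.39% [1.25, 7.23]. The summed list reached 1917 CPM in a 21 d cell and 1840.03 CPM in a naive cell, with a median of 39.7 and 33.4 CPM, and Sox10, the lineage factor, was at 1.39 and 0 CPM. Of the remaining lists, oligodendrocyte precursor genes had 2 of 8 measured and none past the fold, with Pdgfra at 0 and 0.0701 CPM. Endothelial genes had 1 of 8 measured (Tek, lower), pericyte genes 1 of 6 (Pdgfrb, within the fold), ependymal genes 4 of 10 (Ak7 higher) and mature neuron genes 5 of 10 (Rbfox3 higher). Summed levels in single cells reached 955 and 436 CPM for endothelial genes, 777 and 684 for pericyte genes, 1099 and 858 for ependymal genes and 2401 and 1621 for neuronal genes, at 21 d and naive. The part of any of these in the differences above was not tested.

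The 2 d letter shares the naive cells as its comparison, so its values are only set side by side with those at 21 d. For the astrocyte list the median log2 ratio to naive pM was -0.32 at 21 d and -2.28 at 2 d, for the neuroblast list -0.53 and 2.32, and for the reactive astrocyte list 0.38 and 1.87. At 2 d the astrocyte and neuroblast medians were thus further from 0 than at 21 d. The glial class held 22.7% of cells at 2 d, 74.2% at 21 d and 81.4% in naive pM. The part of these shares in the 2 d values was not tested. Sox9 was at 122 CPM at 21 d and 183 CPM at 2 d, Id2 at 64.3 and 159.7 CPM, and Wnt7b at 315 and 88.1 CPM. The striatal GLAST cells of the same letters numbered 79 at 21 d and 131 naive. Of 117 labelled striatal cells of letter pH, 38 were not in the count matrix, against 0 of 131 of naive pM. Several of the genes above were split alike in these striatal cells. Sox9 was at 118 CPM at 21 d and 412 CPM naive in the striatum, Fgfr3 at 234 and 527 CPM, Gja1 at 716 and 2176 CPM, and Wnt7b at 295 and 109 CPM. Hes5 was not, at 159 and 149 CPM. These striatal cells share their letters, and perhaps their mice, with the vSVZ cells, and no test was made of whether either region differed more.

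**Figure D4:**
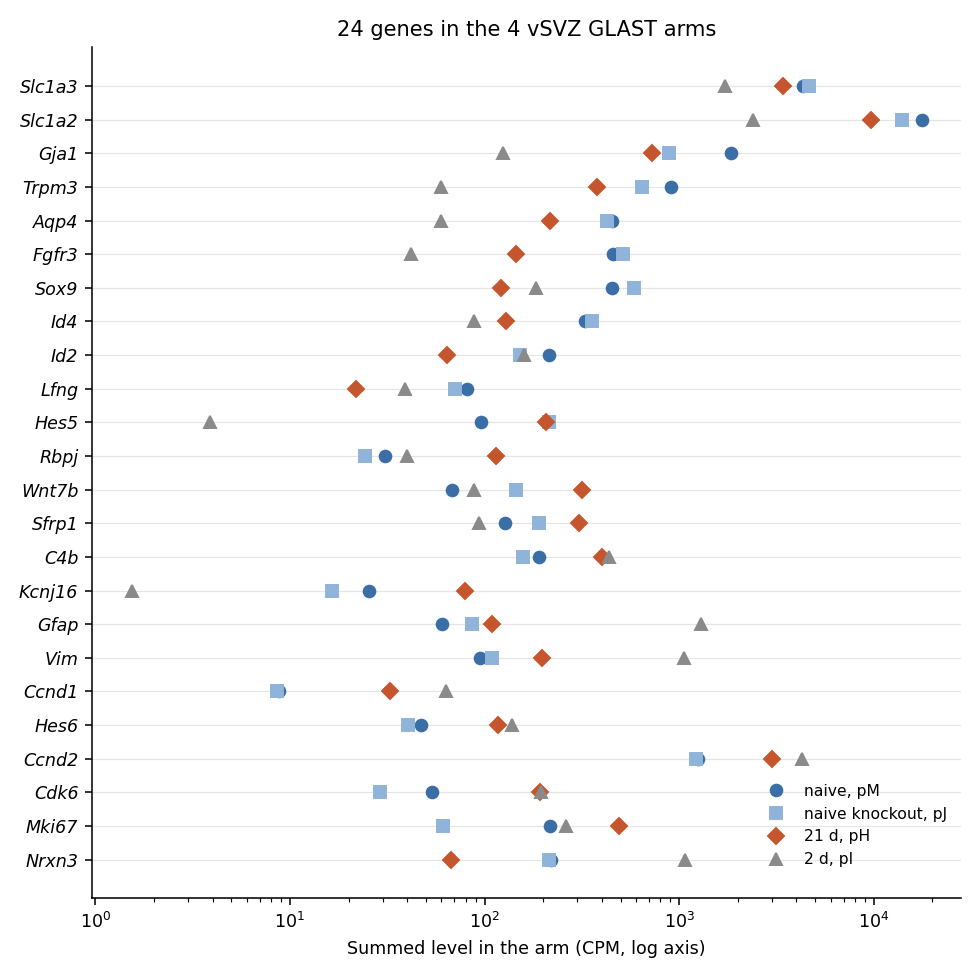
Summed level in CPM (log axis) of 24 genes in the 4 vSVZ GLAST arms, naive TiCY (circles), naive knockout (squares), 21 d (diamonds) and 2 d after ischemia (triangles). Sox9, Fgfr3, Id4, Id2 and Lfng at 21 d lie left of both naive letters, Wnt7b, Rbpj, C4b, Kcnj16, Ccnd1, Ccnd2 and Cdk6 right of both, and Hes5 and Gja1 at 21 d lie close to the naive knockout.

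**Figure D5:**
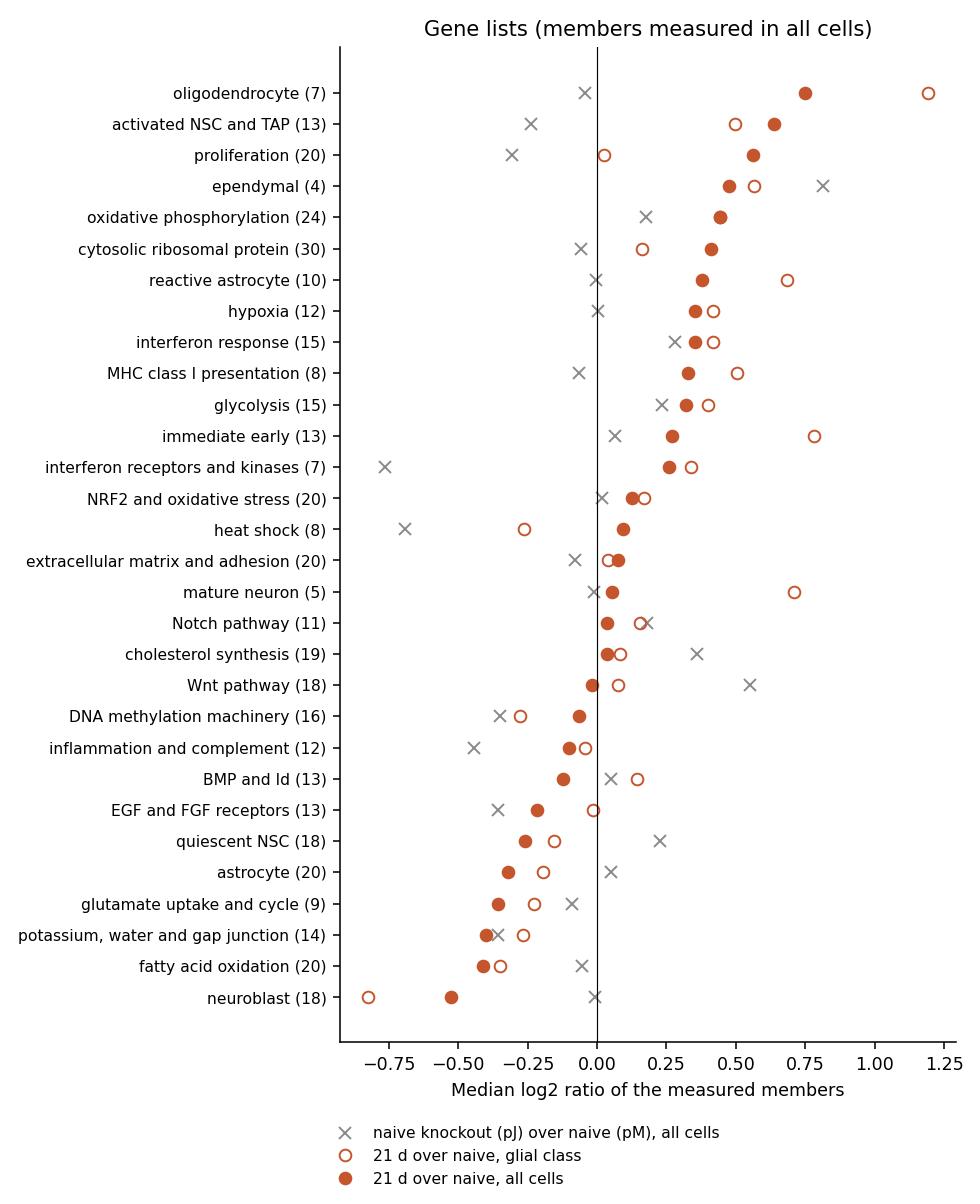
Median log2 ratio of the measured members of each gene list, for 21 d over naive cells (filled circles, all cells; open circles, glial class) and for the naive knockout over naive TiCY (crosses); numbers in brackets are members measured in all cells, and lists with under 3 measured members and the sex-linked genes are left out. Activated NSC and TAP genes have a filled circle at 0.64 and proliferation genes at 0.56 with an open circle near 0, while the neuroblast list is lowest.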

How the data were processed

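Single cells were read by Smart-seq3. The deposited values are raw read counts per gene and cell, which the authors made with STAR and featureCounts on GRCm38 (mm10) per the submitters' processing notes; their versions and the annotation: not given in the sources used here. Of 2584 cells in the matrix, 603 matched no label and were not used. A symbol was found for 35455 of 35606 gene identifiers. Cells were grouped by gate and letter in their titles. Coordinates, biotypes and overlaps came from the GRCm38 annotation supplied as a reference.

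Counts were summed per arm and divided by the arm's total (CPM). The log2 ratio was taken with 5 CPM added to each arm. A gene was measured at a mean of 5 CPM or more and past the fold at a log2 ratio of 1 or more in size. Detection shares came from cells thinned to 50000 counts, leaving out 5 and 11 shallower cells. With 1 letter per arm no test was made. Exact 95% intervals and the limit of 3 counts behind a 0 cover counting error only. Cells were put with the labelled pM type of highest Pearson correlation over 92 marker genes, of which the astrocyte and qNSC2 types form the glial class. Cells were sorted singly per the labels, and no doublet caller was run. Named genes were the 10 highest and 10 lowest ratios in all cells and in the glial class, and the 5 furthest each way beyond both naive letters, by the smaller of the ratios to them. These needed a mean of 20 CPM, detection in 20% of the higher arm's thinned cells and no cell with over 10% of its counts, without mitochondrial, predicted and pseudogenes. Up to 3 members of each of 35 lists were added, with Slc1a3 and the sex-linked genes; other members are named for their role. Some members counted in the lists are not reported by name here. Members and lists were chosen with earlier results of these data known. Alternatives covered the pseudocount, filter, scaling, depth, comparison letter and cell class. The ratio, threshold and thinning steps were checked on simulated data. Software was Python 3.11.15, numpy 2.4.6, scipy 1.17.1, pandas 2.3.3, matplotlib 3.10.9, and edgeR 4.0.16 in R 4.3.3 for TMM factors only.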

Additional observations from a re-analysis of the deposited data

How the results depend on the processing

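With 1 letter per arm no replicate could be left out, and read depth limits genes near 5 CPM. No paired analysis was possible because each arm is 1 letter and no test was made. Counts of genes past the fold fell outside 1.5 times the reported ones under 3 settings. With 20 CPM added they were 335 higher and 359 lower over all cells, and 370 and 381 in the glial class. With a mean of at least 20 CPM, which leaves fewer genes tested, they were 685 and 626, and 693 and 694. Among protein-coding genes that overlap no other gene, chosen after seeing the data and with fewer genes tested, they were 407 and 300 of 4785. Over all cells these are 8.51% higher and 6.27% lower, against 8.33% and 7.82% of all measured genes. The shares thus moved less than the counts. The counts were 479 and 343 in the glial class, and 191 and 116 beyond both naive letters. Between the naive letters they were 198 and 255 of 4711. Against naive pJ in place of pM, 112 of 135 ratios over all cells moved beyond counting error, 8 changed sign and 15 did neither. In the glial class 102 of 132 moved, 11 changed sign and 19 did neither. The microglia list median changed sign over all cells (0.446). Signs of ratios turned over all cells for Adamts20 (0.745), Fkbp5 (0.875), Pde10a (0.842), Tekt4 (0.020), Tyrobp (0.012), Ak7 (-0.505), Hes5 (-0.051) and Mvd (-0.276). In the glial class they turned for Adamts20 (0.967), Fkbp5 (0.008), Gjb6 (0.085), Hspa5 (1.718), Hsph1 (0.362), Mki67 (1.722), Pde10a (0.158), Tekt4 (0.084), Tyrobp (0.017), Ak7 (-0.441) and Mvd (-0.332). The cause was not tested. With 2 settings added after seeing the data, Cxcl10 was at -0.324 in astrocyte-nearest cells alone, and Nqo1 at -0.487 (glial class -0.479) without the cell highest for it in each arm.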
